A study of Mus musculus with 39 samples.

Results

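The 12 libraries described here are the extremes of 17 intestinal tumours from ApcMin/+ mice that were also homozygous for the ex allele of Adam17. They were chosen by measured expression: each ex/ex tumour was given an index, log2((Fabp6 CPM + 1)/(Lct CPM + 1)), where CPM is a gene's count scaled to the library's sum of gene counts, per 1000000, and the 6 tumours with the highest index (ileal-like) were set against the 6 with the lowest (proximal-like). The whole series held 39 libraries of poly(A) RNA sequenced with a stranded kit: 17 ex/ex tumours, 6 samples of ex/ex non-tumour intestine, 12 tumours with wild-type Adam17 and 4 samples of wild-type non-tumour intestine. All mice were C57BL/6 and carried Apc Min, a truncating allele of the Wnt pathway inhibitor Apc that leads to intestinal adenomas, so the non-tumour tissue carried it too. ADAM17 is the membrane protease that releases ligands of the EGF receptor and the IL-6 receptor from the cell surface; ex is known as a hypomorphic allele present in all cells, and it was carried by both tiers. The labels give no age, no position along the gut and no animal, so several tumours may come from 1 mouse.

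The small intestine changes its work along its length. Proximal enterocytes, in duodenum and jejunum, digest lactose and absorb sugars, fat, folate and iron, and the zinc-finger factor Gata4 maintains this program in mice. Enterocytes of the distal ileum recover bile acids: they take them up through the transporter Slc10a2, carry them on the binding protein Fabp6, release them through Slc51a and Slc51b, and, through the bile acid receptor Nr1h4 (FXR), secrete the hormone Fgf15, which restrains bile acid synthesis in the liver. ApcMin/+ mice form adenomas along the small intestine, and an adenoma can retain genes of the segment in which it arose.

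The index was 3.59 to 10.2 in the ileal-like tumours and -10.0 to -7.69 in the proximal-like ones. The 5 tumours left between the tiers had 2.56, 1.45, 0.89, 0.53 and -5.97, so the last tumour inside each tier (3.59 and -7.69) had a neighbour just outside at 2.56 and -5.97. Fabp6 measured 3299, 3871, 4996, 6516, 8509 and 8737 CPM in the ileal-like tumours and 2.73, 3.50, 3.72, 4.31, 5.44 and 7.81 CPM in the proximal-like ones. Lct, the lactase of the brush border, measured 3.43, 4.72, 20.2, 93.2, 659 and 704 CPM in the ileal-like tumours and 1333 to 3824 CPM (median 2395) in the proximal-like ones. The ileal-like tier was thus even in Fabp6 but spread widely in Lct, with replicates 3 and 17 at the upper end. Of the 5 tumours between the tiers, 4 (replicates 6, 8, 9 and 16) held both transcripts, with 657 to 2747 CPM of Fabp6 and 361.5 to 1477 CPM of Lct. These values chose the tiers and carry no test.

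**Figure D1:**
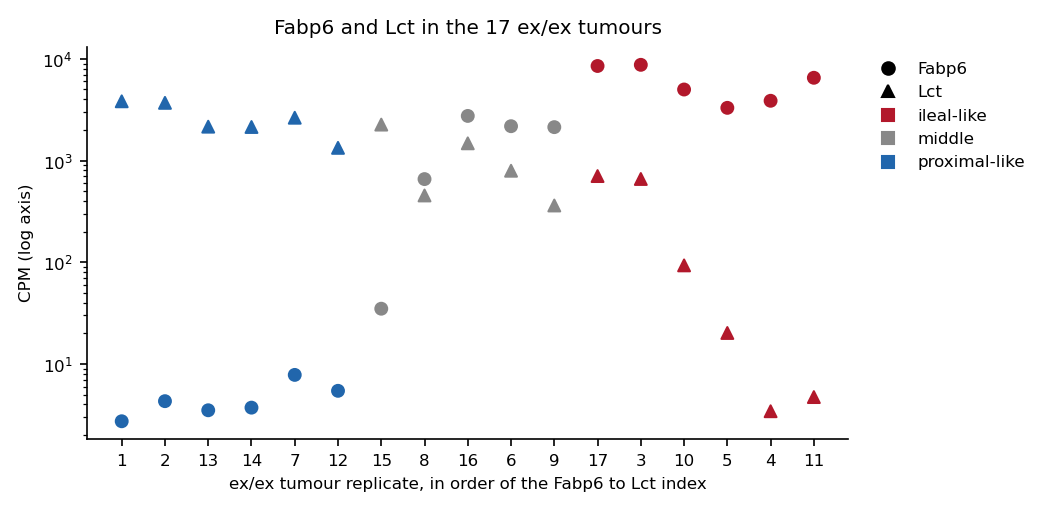
Fabp6 (circles) and Lct (triangles) in CPM, on a log axis, in the 17 ex/ex tumours ordered by the Fabp6 to Lct index; colour gives the tier. The 6 ileal-like tumours sit at 3299 to 8737 CPM of Fabp6, the 6 proximal-like ones at 2.73 to 7.81 CPM, and 4 of the 5 tumours between them hold at least 657 CPM of Fabp6 and 361.5 CPM of Lct.

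The promoters of Fabp6 and Lct, which define the tiers, and of Slc10a2, which the rule did not use, are shown. Whether the regional program acts on these sequences was not tested. They are RefSeq promoter windows on GRCm38.p6, 250 bases before to 50 after the start, all on the minus strand and written 5′ to 3′. Capitals mark the letters AGATAA, read by GATA factors, and TTTATN, read by CDX factors, on either strand. These are matches of letters alone, and binding was not tested. The CDX letters include TATAAA and its reverse TTTATA, the letters of a TATA box, so a CDX match can be a core promoter element. TTTATA in the Fabp6 window is such a match. The inverted repeat of the bile acid receptor, a pair of half-sites in opposite orientation with a spacer of 1 base, was also searched.
Fabp6, chr11:43601513-43601812: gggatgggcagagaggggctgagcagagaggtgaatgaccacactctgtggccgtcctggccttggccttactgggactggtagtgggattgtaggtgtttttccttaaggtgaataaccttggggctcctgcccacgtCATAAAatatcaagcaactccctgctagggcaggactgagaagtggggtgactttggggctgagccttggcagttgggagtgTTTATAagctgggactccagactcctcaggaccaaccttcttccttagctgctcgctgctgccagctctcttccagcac
Lct, chr1:128328269-128328568: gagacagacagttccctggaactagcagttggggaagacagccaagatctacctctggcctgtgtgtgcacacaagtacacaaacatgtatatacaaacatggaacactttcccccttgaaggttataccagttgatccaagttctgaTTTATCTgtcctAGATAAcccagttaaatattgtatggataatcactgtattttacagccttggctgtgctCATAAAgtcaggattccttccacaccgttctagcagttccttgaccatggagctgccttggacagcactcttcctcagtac
Slc10a2, chr8:5105238-5105537: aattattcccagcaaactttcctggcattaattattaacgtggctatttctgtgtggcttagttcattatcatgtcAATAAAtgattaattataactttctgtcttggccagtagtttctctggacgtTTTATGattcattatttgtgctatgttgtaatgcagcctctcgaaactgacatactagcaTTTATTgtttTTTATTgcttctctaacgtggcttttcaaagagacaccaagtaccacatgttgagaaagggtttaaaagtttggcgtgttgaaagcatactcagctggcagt
The Lct window held 2 GATA matches and 2 CDX matches, 1 of which overlaps a GATA match. The Fabp6 window held no GATA and 2 CDX matches, and the Slc10a2 window held no GATA and 4 CDX matches. Of all 32851 promoter windows in the table, 11.2% held the GATA letters, 39.9% the CDX letters and 0.0396% the inverted repeat, which was in none of these 3 windows. Of the separated genes named by rule (defined below), 16 of the 25 higher in ileal-like tumours had a window, of which 3 held the GATA and 7 the CDX letters. Of the 26 lower genes 21 had a window, of which 5 held the GATA and 13 the CDX letters. Fabp6 and Lct, which the rule used, are among these genes. The 16 genes had 20 windows and the 21 genes 25, and a gene was counted if any of its windows matched. The percentages above are per window, so they are not on the same scale as these counts.

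The 17 ex/ex tumour libraries held 7816667 to 10612100 gene counts, 8463083 to 10359206 in the ileal-like and 8711899 to 9988083 in the proximal-like tier. Each pair of libraries of a tier differed by more than sampling noise. The closest were ileal-like replicates 4 and 5, with a chi-square of 5.02 per degree of freedom, and proximal-like replicates 13 and 14, with 6.49. Replicates 1, 2 and 3 looked male, with Xist at 0.455 to 0.63 CPM and Ddx3y at 24.2 to 36.7 CPM; replicates 1 and 2 were proximal-like and replicate 3 ileal-like. The mean log2(CPM + 1) of 10 B cell genes was 7.07 to 8.88 in the ileal-like tumours, and in the proximal-like ones 0.97 in replicate 2, 4.68 in replicate 1 and 7.27 to 8.47 in the other 4. The mean of 9 epithelial genes (Epcam, keratins, villin and claudins) was 8.36 to 10.2 in the ileal-like and 9.27 to 10.3 in the proximal-like tumours. In bulk tissue, fewer cells of a type and less RNA per cell cannot be told apart. Adam17 measured 15.1 to 42.2 CPM in the ileal-like and 10.4 to 30.1 CPM in the proximal-like tumours, and the tiers overlapped.

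The names of the tiers were checked against markers of the neighbouring segments. Pdx1 and Tmprss15 (enteropeptidase), which mark the duodenum, reached at most 0.455 and 1.71 CPM in the proximal-like tumours, while ex/ex non-tumour samples reached 103 and 374 CPM, so the proximal-like tier lacked these duodenal markers. Of the colon list, 4 of 8 measured genes passed the filter on low values (a mean of at least 1 CPM over the 12 libraries). None was separated between the tiers (defined below), which says little where 1.67% of all genes were. The hindgut hormone Insl5 reached at most 1.18 CPM. A second list of distal enterocyte genes did not follow the ileal label as the bile acid genes did. Of its 11 members, 2 (Tmigd1 and Gcg) were separated and higher in the ileal-like tumours, beside 0.472% of all genes. The list's median difference was -0.33 (log2), with 5 members above 0 and 6 below. Cubn and Amn, the intrinsic factor receptor that absorbs vitamin B12 in the ileum, overlapped, with 219 to 1281 CPM against 365 to 1216 CPM and 26.4 to 138 CPM against 66.5 to 207 CPM. Ileal-like here therefore means the bile acid genes, and proximal-like means lactase and the genes below.

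A gene was called separated where every library of one tier lay above every library of the other and the difference in mean log2(CPM + 1) was at least 1. Of 14631 genes that passed the filter, 69 (0.472%) were higher and 176 (1.2%) lower in the ileal-like tumours, 1.67% in all. Every gene of these libraries counts as used once the tiers are picked, so these are descriptions with no p-value; differences are given with their standard error over the 6 and 6 tumours. The median difference of all genes was 0.34 toward the ileal-like tier on plain CPM and 0.11 with TMM factors (edgeR's scaling for composition). With TMM factors 33 genes were higher and 156 lower, and 165 genes were separated in both, so lower genes weigh more in the split under that scaling. A gene with a mean under 1 CPM in one tier passed the filter through the other alone and was bound to differ, which held for 16 of the 69 higher and 11 of the 176 lower genes, among them Fgf15, Slc25a48, Ttc36, Hoxb6, Hoxb9 and Adora2b. The Benjamini-Hochberg test across genes was kept for the wild-type tumours, which the rule did not use.

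Of the 7 bile acid genes besides Fabp6, which the rule used, 5 were separated and higher in the ileal-like tumours, where 0.472% of all genes were. Among these 5, Fgf15 passed the filter through the ileal-like tumours alone and so was bound to differ. Fgf15, the hormone of the circuit, measured 68.4 to 221 CPM (median 122.5) against 0.302 to 1.59 CPM (median 0.41), a difference of 6.32 ± 0.31. Slc10a2, the apical uptake transporter whose promoter is shown above, measured 117 to 531 CPM (median 205) against 1.41 to 6.31 CPM (median 3.86), a difference of 5.69 ± 0.45. Both genes were nearly silent in every proximal-like tumour. The other 3 were present in both tiers and differed less: the export subunits Slc51a (306 to 917 CPM against 175 to 267.5 CPM, difference 1.41 ± 0.29) and Slc51b (1.55 ± 0.27), and the receptor Nr1h4 (42.0 to 123 CPM against 24.1 to 35.7 CPM, 1.40 ± 0.27). Nr0b2 (SHP), a repressor that the bile acid receptor induces, had 4.22 to 10.5 CPM against 1.02 to 5.92 CPM, and Abcc3, a basolateral export pump, 33.6 to 66.1 CPM against 35.9 to 76.1 CPM; both overlapped. The uptake transporter thus differed far more between the tiers than the export subunits and the receptor. Fgf15, bound to differ, is left out of this contrast.

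Outside that circuit, the genes with the largest differences toward the ileal-like tumours had varied roles. Slc13a1, the apical sodium-sulfate cotransporter, measured 90.9 to 349 CPM against 4.76 to 38.4 CPM (3.72 ± 0.55), and Suox, the mitochondrial sulfite oxidase that makes sulfate, 145 to 419 CPM against 19.5 to 32.9 CPM (3.48 ± 0.26). Slc25a48, a mitochondrial carrier, stood at 28.2 to 115 CPM against 0.567 to 1.15 CPM (4.82 ± 0.30). Cldn2, the claudin that forms cation-selective pores, measured 55.0 to 183 CPM against 6.53 to 17.1 CPM (2.87 ± 0.30). The magnesium channel Trpm6 differed by 2.53 ± 0.22, the carbonic anhydrase Car12 by 2.46 ± 0.29, and Hsd11b2, which inactivates glucocorticoids in mineralocorticoid target tissue, by 2.07 ± 0.35. Card9, an adaptor of fungal recognition in myeloid cells, differed by 2.23 ± 0.27 (6.23 to 20.6 CPM against 1.03 to 3.06 CPM). The macrophage and dendritic cell list had a median difference of 0.63 with 0 of 13 members separated, beside 1.67% of all genes. The part of that list in the difference of Card9 was not tested. Tmigd1, an adhesion molecule of the brush border, differed by 3.39 ± 0.47, and the glycosyltransferase Mgat4c by 2.67 ± 0.57. Ttc36 (3.52 ± 0.29) and Fyb2 (2.03 ± 0.18) complete the 15 largest.

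**Figure D2:**
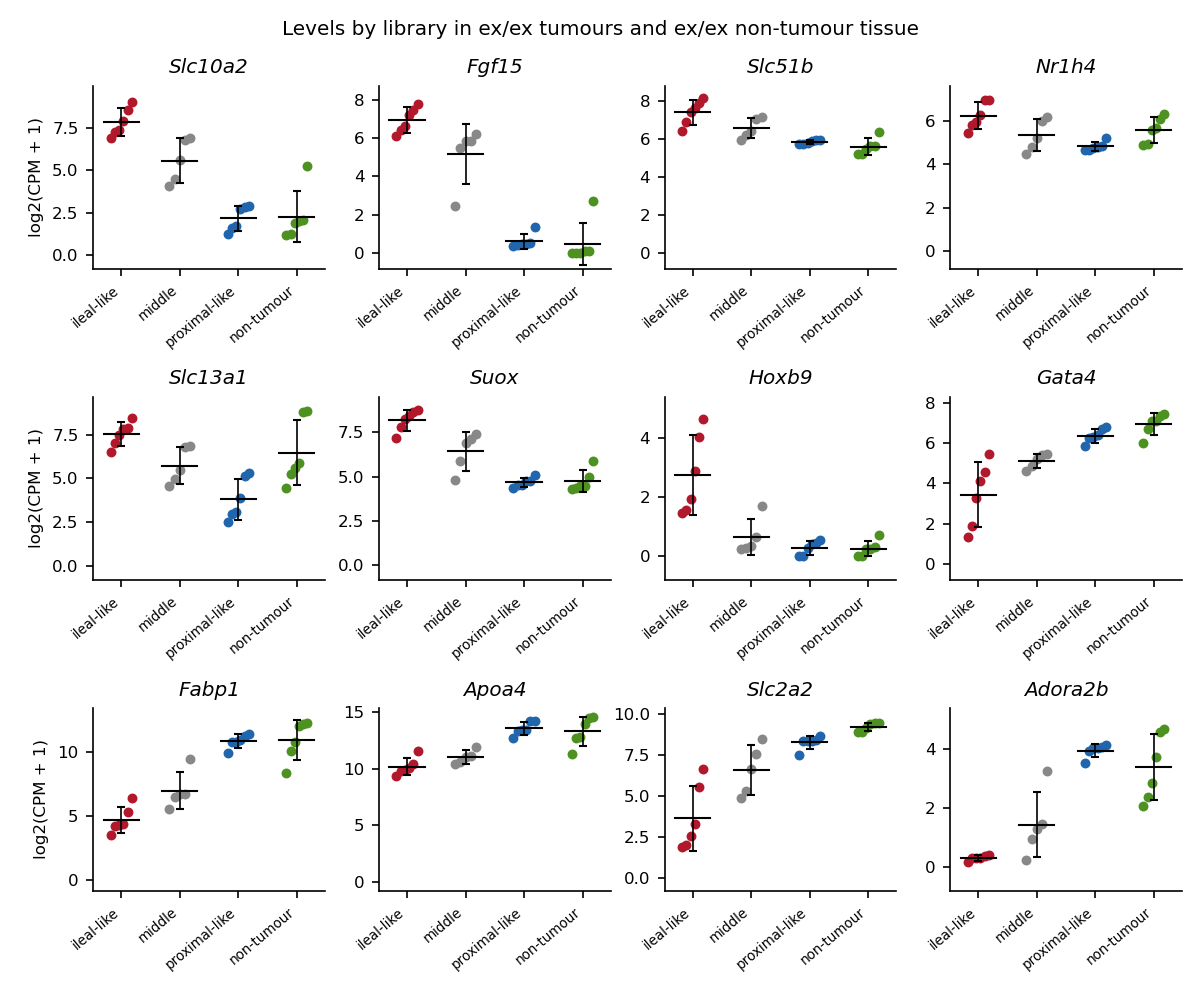
Levels of 12 genes as log2(CPM + 1), 1 point per library, in the 6 ileal-like, 5 middle and 6 proximal-like ex/ex tumours and the 6 ex/ex non-tumour samples; lines and bars are the mean and SD. Slc10a2, Fgf15 and Suox lie above every proximal-like tumour in all 6 ileal-like tumours, Gata4, Fabp1 and Slc2a2 below, and Adora2b is at 0.12 to 0.34 CPM in every ileal-like tumour.

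Genes of fat absorption were lower in the ileal-like tumours. All 19 members that passed the filter had a difference below 0 (median -1.54), and 6 of them were separated, all lower, beside 1.2% of all genes. Fabp1, the fatty acid binding protein shared with the liver, measured 10.4 to 82.9 CPM (median 19.4) against 936 to 2678 CPM (median 1842), a difference of -6.12 ± 0.47, the lowest of all separated genes. Fabp1 belongs to the same family of lipid carriers as Fabp6, whose pattern across the tiers was fixed by the rule. Apoa4 and Apoc3, apolipoproteins of chylomicrons, had 644 to 3065 CPM against 6706 to 19290 CPM (-3.38 ± 0.39) and 26.7 to 333 CPM against 644 to 1927 CPM (-4.08 ± 0.61). The retinol carrier Rbp2 differed by -4.00 ± 0.63, the fatty acid receptor Cd36 by -3.11 ± 0.57 and the acyl-CoA synthetase Acsl5 by -1.71 ± 0.35. The other 13 overlapped between the tiers, among them Mttp, which loads lipid onto apolipoprotein B (125 to 1412 CPM against 1338 to 2848 CPM), and Fabp2 (1050 to 16010 CPM against 4831 to 14800 CPM).

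Brush border enzymes and a list of sugar, iron, vitamin and calcium genes went the same way but less uniformly. Among 17 brush border enzymes, 16 had a difference below 0 and 4 were separated and lower, where 1.2% of all genes were: Lct, which the rule used, the trehalase Treh (4.02 to 145.5 CPM against 184 to 449 CPM, -3.44 ± 0.85), and the peptidases Ace (88.0 to 913 CPM against 1515 to 3292 CPM, -3.11 ± 0.61) and Mme (-2.73 ± 0.55). Mep1a, the meprin alpha subunit, was the member with a difference above 0 (372 to 2352 CPM against 276 to 1009 CPM). Of 14 genes of the sugar, iron, vitamin and calcium list, 4 were separated and lower (1.2% of all genes) and 1 higher (0.472%). The lower ones include Leap2 and Khk, which are not transporters. Slc2a2 (GLUT2), the glucose transporter, measured 2.60 to 97.3 CPM (median 6.74) against 180 to 402 CPM (median 320), a difference of -4.62 ± 0.82. The proton-coupled folate transporter Slc46a1 measured 5.08 to 11.9 CPM against 45.0 to 117 CPM (-3.33 ± 0.29). The peptide Leap2, which blocks the ghrelin receptor, differed by -3.63 ± 0.59, and Khk, the first enzyme of fructose breakdown, by -1.88 ± 0.43. The iron exporter Slc40a1 (ferroportin) went the other way, with 18.2 to 73.4 CPM against 6.09 to 10.4 CPM (1.88 ± 0.32). Epithelial markers moved beside these genes: the 9 epithelial genes had a median difference of -0.45. With the epithelial mean as a covariate, medians were -1.06 for fat absorption, -0.80 for the brush border and -1.22 for sugar, iron and vitamins. The brush border median includes Lct, which the rule used.

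Detoxifying enzymes were lower as well: 18 of 21 had a difference below 0 (median -1.13) and 5 were separated and lower, beside 1.2% of all genes. They included the alcohol dehydrogenase Adh6a (4.96 to 108.5 CPM against 352 to 660 CPM, -4.33 ± 0.75) and Nr1i3 (CAR), the nuclear receptor that switches on drug metabolism (0.827 to 11.47 CPM against 27.0 to 48.1 CPM, -3.10 ± 0.48). The other 3, named after their values were seen, were the alcohol dehydrogenase Adh1 (-2.62 ± 0.51) and the glutathione S-transferases Gstm3 (-2.94 ± 0.46) and Gsta1 (-1.06 ± 0.26). Cyp2b10, a target of Nr1i3 in mouse liver, had the largest difference of the list, -5.06 ± 0.93, but overlapped between the tiers because ileal-like replicate 3 held 56.2 CPM and proximal-like replicate 12 held 49.4 CPM. Ugt2a3, a glucuronosyltransferase, differed by -4.15 ± 0.70, the extracellular nucleotide pyrophosphatase Enpp3 by -4.80 ± 0.76, and the secreted nuclease Dnase1 by -4.75 ± 0.83. The adenosine receptor Adora2b measured 0.118 to 0.34 CPM (median 0.232) against 10.7 to 16.5 CPM (median 15.4), a difference of -3.65 ± 0.09. Its ileal-like level rested on 1 to 3 counts per library, where the pseudocount of 1 narrows the spread, and the difference was -5.46 with a pseudocount of 0.1 in place of 1. Mbl2, a lectin of the complement system, measured 4.08 to 20.0 CPM against 26.2 to 221 CPM. Cholesterol synthesis was the opposite: 15 of 16 genes had a difference above 0 (median 0.83, 0.57 with TMM factors), and Sqle, Fdft1 and Mvd were separated and higher (0.472% of all genes), with Sqle at 82.5 to 128 CPM against 25.2 to 49.8 CPM (1.23 ± 0.17). With TMM factors all 3 fell below the minimum of 1, with differences of 0.97 for Sqle, 0.79 for Fdft1 and 0.78 for Mvd.

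Of 15 factors that pattern the gut epithelium and passed the filter, 2 were separated, both lower in the ileal-like tumours, as were 1.2% of all genes. Gata4 measured 1.498, 2.72, 8.79, 16.5, 23.2 and 43.0 CPM against 56.5 to 111 CPM (median 81.2), a difference of -2.94 ± 0.67. The order of Gata4 in the ileal-like tumours matched that of Lct at its upper end: replicates 3 and 17 held the most of both. Lct was used by the rule, and these replicates also had the highest epithelial means (10.18 and 10.03) and the lowest B cell means (7.09 and 7.07) of the tier; the part of these in the level of Gata4 was not tested. Its relatives overlapped, Gata6 with 7.27 to 48.0 CPM against 24.6 to 70.2 CPM and Gata5 with 34.7 to 109 CPM against 57.7 to 84.0 CPM. Onecut2, a homeodomain factor expressed in mouse duodenum, measured 1.06 to 2.32 CPM against 9.41 to 34.5 CPM (-2.58 ± 0.29). The homeodomain factors Cdx1 (49.5 to 132 CPM against 46.9 to 95.7 CPM) and Cdx2 (62.8 to 187 CPM against 90.7 to 134 CPM), which specify intestine as a whole, overlapped, as did the enterocyte factor Hnf4a. Among Hox genes, which mark position along the body axis, 16 of 39 passed the filter. Of these, Hoxb9 and Hoxb6 were separated and higher, beside 0.472% of all genes. Both passed the filter through the ileal-like tumours alone and so were bound to differ. They are given as single genes, not as a result about Hox genes. Hoxb9 measured 1.74, 1.93, 2.81, 6.299, 15.1 and 24.0 CPM against 0 to 0.454 CPM, and Hoxb6 measured 1.16 to 14.1 CPM against 0.3 to 0.804 CPM. The 2 tumours with the most Hoxb9, replicates 11 and 4, held the least Gata4.

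Hormone genes of the enteroendocrine cells went in both directions. Gcg, which encodes GLP-1 and marks distal L cells, measured 10.1 to 30.5 CPM against 3.62 to 8.19 CPM (1.88 ± 0.29) and was the 1 separated member of 13, beside 1.67% of all genes. Gip, the incretin of proximal K cells, had 4.96 to 71.8 CPM against 60.2 to 194 CPM (-2.51 ± 0.63) and overlapped through ileal-like replicate 3. Ghrl, which encodes ghrelin, had 0.337 to 1.73 CPM against 1.93 to 4.12 CPM without overlap, but its difference of -0.74 stayed under the minimum. The granule protein Chgb overlapped, with 9.49 to 53.0 CPM against 41.2 to 99.2 CPM. Of 14 genes of mucosal defence, Reg1, a secreted lectin-like protein, was separated and lower (0.576 to 5.55 CPM against 10.2 to 93.2 CPM). Nos2, the inducible nitric oxide synthase, had 36.8 to 222 CPM against 1.14 to 54.0 CPM (3.05 ± 0.94) and overlapped, and the acute phase gene Saa1 reached 69.7 CPM in ileal-like replicate 11 and 11.97 CPM in replicate 10 but at most 4.61 CPM in the other 4. With 1.67% of all genes separated, the 0 of 12 Paneth, 0 of 11 goblet and 0 of 9 tuft cell genes say little about these lists; their median differences were 0.05, 0.40 and -0.12 beside 0.34 for all genes.

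Beside 1.67% of all genes, the few separated genes of the crypt and of the pathways of Apc and ADAM17 are given as single genes, not as a result about these lists. None of 14 crypt and stem cell genes was (median 0.12), and of 16 Wnt targets and regulators only Sp5, a direct Wnt target, was, with 0.352 to 2.72 CPM against 4.42 to 11.6 CPM (-1.87 ± 0.27). Apc measured 98.4 to 123 CPM against 86.3 to 97.1 CPM; the tiers did not overlap, but the difference was 0.22 ± 0.06 and became -0.05 with TMM factors. Of 9 EGF receptor family genes, 1 was separated: the ligand Hbegf, a substrate of ADAM17, measured 7.80 to 20.9 CPM against 28.0 to 39.4 CPM (-1.26 ± 0.26). The ligand Ereg had 6.56 to 25.3 CPM against 4.08 to 12.6 CPM and overlapped. None of 9 IL-6 family genes was separated.

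All 20 proliferation genes had a difference above 0, with a median of 1.17 beside 0.34 for all genes, and none was separated. With 1.67% of all genes separated, such counts say little about this list or the lymphoid and M cell lists below. Mki67, which marks cycling cells, measured 112 to 832 CPM against 35.5 to 395 CPM. Lymphoid genes moved beside them: the B cell list had a median difference of 1.88 and the germinal centre list of 1.82, with 0 of 10 and 0 of 7 members separated. Proximal-like replicates 1 and 2, the libraries poorest in B cell genes, had the lowest Mki67 (35.5 and 45.9 CPM). Without libraries 1, 2 and 3 and with tiers of 5 the proliferation median was 0.70 and the B cell median 0.43; with the B cell mean as a covariate the proliferation median was 0.35. The M cell list, whose cells cover lymphoid follicles, had 1 of 10 members separated (Pglyrp1, a peptidoglycan-binding protein named after its value was seen, 1.07 ± 0.24, 0.81 with TMM factors) and a median of 1.11, which was 0.24 with that covariate. The bile acid and fat absorption medians with the same covariate were 1.61 and -1.15. The bile acid median includes Fabp6, which the rule used.

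**Figure D3:**
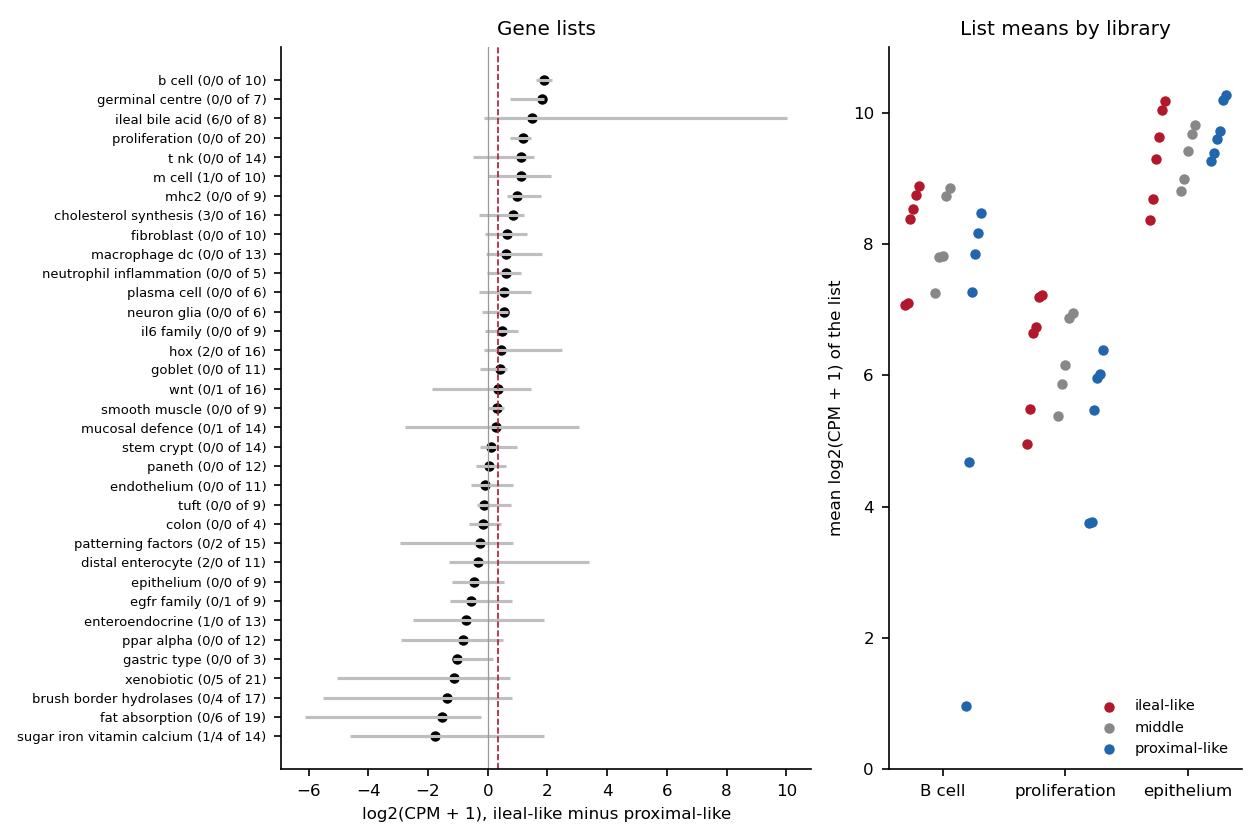
Left, the median (point) and range (line) of the log2 difference in each gene list, with the number separated higher/lower of those passing the filter. The dashed line is the median of all genes, 0.34. The bile acid and brush border lists include Fabp6 and Lct, which the rule used. Right, the mean log2(CPM + 1) of 3 lists in each ex/ex tumour by tier: proximal-like replicates 1 and 2 sit below all other tumours for B cell genes (4.68 and 0.97).

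The 5 tumours between the tiers had medians between those of the tiers for several of these genes, but not for all. Their Slc10a2 was 15.6 to 120 CPM (median 47.5) and their Fabp1 45.3 to 692 CPM (median 103). Gata4 was 24.0 to 42.7 CPM there, between the tiers in median. Onecut2 and Hoxb9 were at one tier's level instead: Onecut2 was 1.16 to 2.94 CPM, close to the ileal-like level, in all 5, and Hoxb9 was 0.189 to 2.24 CPM, in 4 of the 5 close to the proximal-like level. Replicate 15, the middle tumour nearest the proximal-like tier, had 8.57 CPM of Adora2b against 0.189 to 1.74 CPM in the other 4. The ex/ex non-tumour samples had an index of -9.93 to -4.46, and so all lay on the proximal side, with 319 to 4719 CPM of Fabp1 and 63.0 to 174 CPM of Gata4. None of them held the ileal level of Fabp6 (1.96 to 102 CPM). The labels give no segment for them, and replicate 6, with the most Fabp6, had a distal enterocyte mean of 8.26 against 3.84 to 5.84 in the other 5 and a median of 7.10 in the ileal-like tumours.

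The same relation was tested in the 12 tumours with wild-type Adam17, whose index ran from -8.31 to 10.05. One of them, replicate 4, stood apart: it held 119 CPM of Epcam against 1211 CPM or more in the other 11, an epithelial mean of 6.01 against 9.36 to 10.7, and a B cell mean of 8.83. With all 12 tumours, edgeR's quasi-likelihood test of the slope on the index called 0 of 15602 genes (0.0%) at an adjusted p of 0.05; 781 genes had an unadjusted p under 0.05, and DESeq2 called 40 genes higher and 99 lower with the index. Fabp6 and Lct make up the index and were left out of these counts. Without replicate 4, which the labels do not mark, 984 of 15198 genes (6.47%) were higher and 998 (6.57%) lower with the index. Labels name no animal, so these p-values measure the spread between samples that may share one.

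The genes separated between the ex/ex tiers had slopes of the same direction in the wild-type tumours. Of the 68 higher genes besides Fabp6, 66 were tested and 65 had a slope above 0; of the 175 lower genes besides Lct, 173 were tested and 170 had a slope below 0. Over all genes tested, 53.9% had a slope above 0. The median slope, as the log2 change per 10 units of index, was 1.02 for the higher and -1.03 for the lower genes, against 0.03 for all. Without replicate 4, 22 of the 66 higher genes (33.3%) and 128 of the 173 lower genes (74.0%) passed the threshold, each in the direction of the tiers; they were 2.24% of all genes called higher and 12.8% of those called lower. With all 12 tumours none passed in edgeR with the index alone. Other fits over the 12 tumours passed some. DESeq2 passed 15 of 66 higher and 47 of 173 lower genes, beside 40 higher and 99 lower of all 15602. The epithelial mean as a covariate was chosen after seeing the data. It passed 42 of 68 and 130 of 174, beside 1717 higher and 1077 lower of all 16128. With an index from lists, 0 of 66 and 21 of 173 passed, beside 2 higher and 26 lower of all 15602. That index is made of the bile acid and brush border lists without Fabp6 and Lct. Separated members of these lists were still counted, though they make up that index.

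Genes with large differences between the ex/ex tiers are given with their wild-type slopes. Fabp1 ran from 1925 CPM in the wild-type tumour with the lowest index to 11.8 CPM in that with the highest, with a slope of -4.02 ± 0.58 (SE, edgeR adjusted p = 0.126). Without replicate 4 its adjusted p was 0.000471, and over all alternatives it ranged from 2.61e-12 to 0.938. Slc10a2 had 702.5 and 503 CPM in the 2 tumours with the highest index and 18.4 CPM in that with the lowest, a slope of 3.26 ± 0.72 (edgeR adjusted p = 0.272, 0.00302 without replicate 4, range 0.000323 to 0.938). Gata4 had 10.2 and 7.33 CPM against 129 CPM in the same tumours (slope -2.23 ± 0.71, edgeR adjusted p = 0.666, 0.00382 without replicate 4, range 0.00259 to 1). The slope of Slc2a2 was -4.70 ± 0.84, of Fgf15 3.35 ± 0.69, of Suox 2.04 ± 0.43 and of Slc25a48 2.96 ± 0.48. Hoxb9 fell below the filter in wild-type tumours but held 18.4 and 4.67 CPM in the 2 with the highest index and at most 0.578 CPM in the other 10.

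A few separated genes did not follow the index in wild-type tumours. Onecut2 had a slope of 0.18 ± 1.02 (edgeR adjusted p = 0.993) and -0.18 without replicate 4; it held 64.7 CPM in replicate 2, with the second highest index, and 3.33 CPM in replicate 1, with the highest. Its lowest values, 2.35, 3.33 and 7.51 CPM, were in replicates 7, 1 and 4, the 3 wild-type tumours with the most B cell signal (7.59 to 8.83); the part of that in its level was not tested. Sp5 had a slope of -0.02 ± 1.12. Arsg, Syt2 and Mcmdc2, picked after their values were seen, were the other genes with a slope opposite to the tiers. Arsg had a slope of 0.08 ± 0.19, and whether the relation to the index differs between the genotypes was not tested. Among lists, without replicate 4, 16 of 19 fat absorption genes, 11 of 16 brush border genes, 9 of 15 sugar, iron and vitamin genes and 14 of 20 detoxifying genes were lower with the index, beside 6.57% of all genes, and 3 of 6 bile acid genes and 14 of 20 proliferation genes were higher, beside 6.47%. B cell signal was uneven along the index there too: the 2 tumours with the highest index had B cell means of 8.41 and 3.86 and 8 of the other 9 had 0.851 to 1.59. With the B cell mean as a covariate over 12 tumours, 29 of 68 higher and 6 of 174 lower genes passed the threshold. Of all 16128 genes in that fit, 82 were higher and 15 lower.

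**Figure D4:**
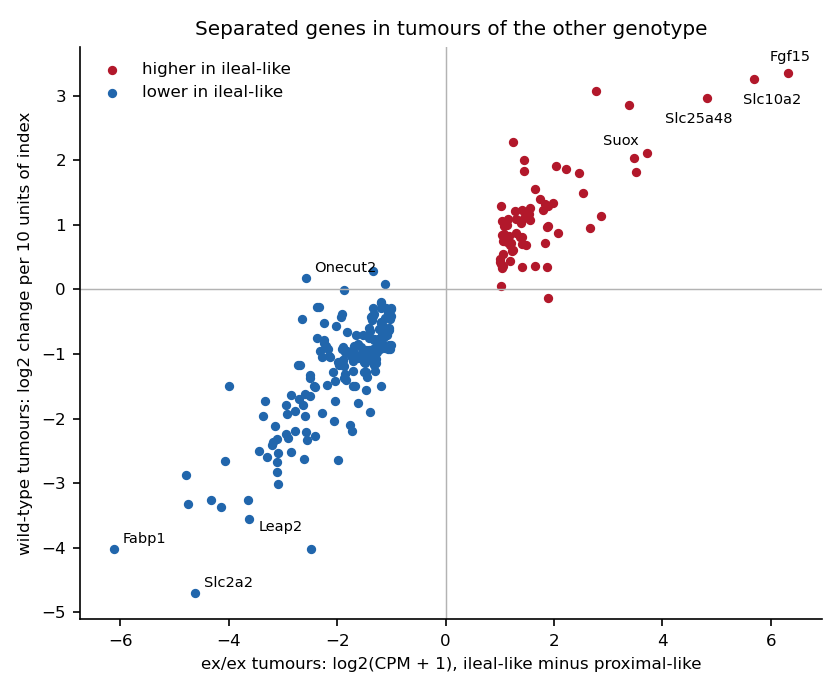
Each point is a gene separated between the ex/ex tiers and tested in wild-type tumours (66 higher, 173 lower; Fabp6 and Lct left out). The x axis gives the log2 difference in ex/ex tumours, the y axis the log2 change per 10 units of index in the 12 wild-type tumours; 65 of 66 and 170 of 173 points lie in the quadrant of the same direction.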

How the data were processed

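The deposited values were whole-number read counts per gene and library, not normalized. The submitters' processing notes name TopHat2 2.0.14, Trimmomatic 0.36, HTSeq and the build GRCm38. How HTSeq was set for strand, its version and the annotation were not given in the sources used here. Its summary lines were excluded: reads on no feature made up 3.51 to 5.91%, ambiguous reads 0.676 to 0.842% and reads aligned more than once 29.2 to 33.2% of a table of either tier. Reads of near-identical genes are thus partly lost. Symbols came from GENCODE M21, which matched 49326 of 49585 IDs.

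Tiers are described without a test. The slope on the index in wild-type tumours was fitted with edgeR 4.0.16 in R 4.3.3 (quasi-likelihood test, TMM factors, filterByExpr, Benjamini-Hochberg adjustment over all genes, threshold 0.05; SE is the slope over the square root of F), with DESeq2 1.42.0 as an alternative. Both steps were tested on simulated data.

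The members of the tiers and the 37 gene lists were chosen with earlier results of these data known. Named genes are Fabp6, Lct, Adam17 and Apc, members of the position, nutrient, defence and hormone lists, up to 4 members of each other list with the largest absolute difference, and the 15 largest and 15 smallest differences among separated genes with a mean of at least 5 CPM, without systematic names. Some alternatives were chosen after seeing the data: the epithelial mean as a covariate, in the tiers and in the wild-type fit.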

Additional observations from a re-analysis of the deposited data

Results flagged for a closer look

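The highest and lowest library of each tier of 6 was compared with its nearest neighbour for 37 list means, Adam17 and Apc, 78 groups in all, of which chance alone would flag about 5%. A gap larger, as a share of the tier's range, than Dixon's critical value was found in 3. Ileal-like replicate 17 had a neuron and glia mean of 1.87, against at most 1.48 in the other 5. Proximal-like replicate 12 had a colon list mean of 2.42, against at least 2.63 in the others. Proximal-like replicate 7 had a smooth muscle mean of 3.998, against at least 5.21 in the others. Proximal-like replicate 12 is also the tumour of that tier with the index closest to the middle, -7.69.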

How the results depend on the processing

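No paired analysis was possible because the replicate numbers only follow the order of the accessions. The counts of separated genes (69 higher, 176 lower) became 176 and 376 with tiers of 5, 32 and 4 with tiers of 8, 17 and 68 with a minimum difference of 2, and 322 and 318 with none. TMM factors gave 33 higher, and the epithelial mean as a covariate 111 higher. Leaving out 1 tumour gave 64 to 104 higher and 165 to 297 lower; the upper ends came without proximal-like replicate 12. Pseudocounts, the low-value filter, the B cell covariate, the exclusion of libraries 1, 2 and 3 and an index from lists without Fabp6 and Lct kept both counts within 1.5 times. The median of the B cell list became -0.0045 with that list as the covariate, by construction. In wild-type tumours, where the main test called none, DESeq2 called 40 higher and 99 lower, 22 libraries with group as a term 13 and 29, the B cell covariate 82 and 15, the epithelial covariate 1717 and 1077, and an index from lists 2 and 26. Leaving out 1 wild-type tumour gave 0 to 984 higher and 0 to 998 lower, with calls only without replicate 4; the cause was not tested. DESeq2's size factors within edgeR, no filter and a pseudocount of 10 in the index called none. The counts with an index from lists did not leave out the genes that make up that index.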

Other observations

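Gene families were counted among the separated genes after these had been seen, so the counts are descriptions, to be read beside the 0.472% of all genes that were higher and 1.2% that were lower. Solute carriers went both ways (9 higher and 16 lower of 270), while the other families counted had separated members on the proximal side alone. Of 19 glutathione S-transferases that passed the filter, 5 (Gsta1, Gstm3, Gstm6, Gstm7 and Gstt1) were lower in the ileal-like tumours and 0 higher. Of 4 alcohol dehydrogenases 3 were lower (Adh1, Adh4 and Adh6a), and of 9 apolipoprotein L genes 4 were lower (Apol9a, Apol10a, Apol10b and Apol11b). Of 36 cytochrome P450 genes 3 were lower. Members of these families are similar in sequence, and the share of reads lost to multiple alignment can differ between them.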
